A study of Saccharomyces cerevisiae with 2 samples.

Results

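ICR1 and PWR1 are the long noncoding RNAs of the FLO11 promoter in budding yeast, and they were taken by name from a genome-wide table of gene compaction scores in swr1Δ. They are 2 of the 4738 scored identifiers. FLO11 itself is scored under its systematic name, YIR019C, and its older name, MUC1. All 3 units were set beside the scored identifiers from YIR015W to YIR023W, a stretch of chromosome IX in which 13 identifiers have a score.

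The scores come from Micro-C, a chromosome conformation method that digests fixed chromatin to nucleosomes with micrococcal nuclease and ligates those that touch, so that a read pair reports a contact. The strain was W303 lacking SWR1, the catalytic subunit of the SWR-C complex that exchanges the histone variant H2A.Z into nucleosomes, and it was grown in YPD to mid-log phase at 30 °C. The labels name 2 replicates of swr1Δ and the study's methods name 3, and WT was not analysed here. Each identifier carries 1 score, with no value per replicate, so no difference below can be set against the spread between replicates and no test was possible. The deleted gene, SWR1, still has a row in the table, at -2.13, with 0.507% of identifiers below it.

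FLO11 encodes a cell surface flocculin, a mucin-like protein that yeast needs for invasive and pseudohyphal growth and for biofilms, and its unusually long promoter switches between an active and a silent state. ICR1 is transcribed across that promoter on the strand of FLO11 and hinders it. PWR1 is transcribed from the opposite strand, interferes with ICR1 and thereby favors FLO11, whereas the activator Flo8, the repressor Sfl1 and the Rpd3L histone deacetylase act on the choice between them.

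In the R64 gene table, FLO11 spans chrIX:389572-393675 on the Crick strand, so its promoter lies at higher coordinates. ICR1 spans chrIX:393884-397082, and its nearer end lies 208 bp from the start of FLO11. PWR1 spans chrIX:395999-396939. ICR1 is 3199 bp long and PWR1 941 bp, and all 941 bp of PWR1 lie inside ICR1, of which they make up 29.4%. The remainder of ICR1 is 2115 bp on the FLO11 side of PWR1 and 143 bp on the other side. Measured from the FLO11 start codon, PWR1 covers the promoter from 2324 bp to 3264 bp and ICR1 reaches 3407 bp. Which boundaries the authors used for the scored units is not stated in the sources used here, and the study's transcript annotation, held here only in part, gave no entry for these units. If they match the gene table, the scores of the overlapping RNAs do not come from separate stretches of DNA, because every read pair within PWR1 also lies within ICR1.

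ICR1 had a score of -0.0139 and PWR1 a score of 0.369. FLO11 had a score of 0.132. Of these 3 units, none fell below the median of all scores, -0.0394, beside 50.0% of all identifiers. The central scores of the genome ran from a lower quartile of -0.342 to an upper quartile of 0.248, so ICR1 and FLO11 lay in the middle of the range and PWR1 above it. Whether a high score marks a more compact or a less compact unit is not given in the sources used here, so higher and lower refer to the number alone.

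**Figure D1:**
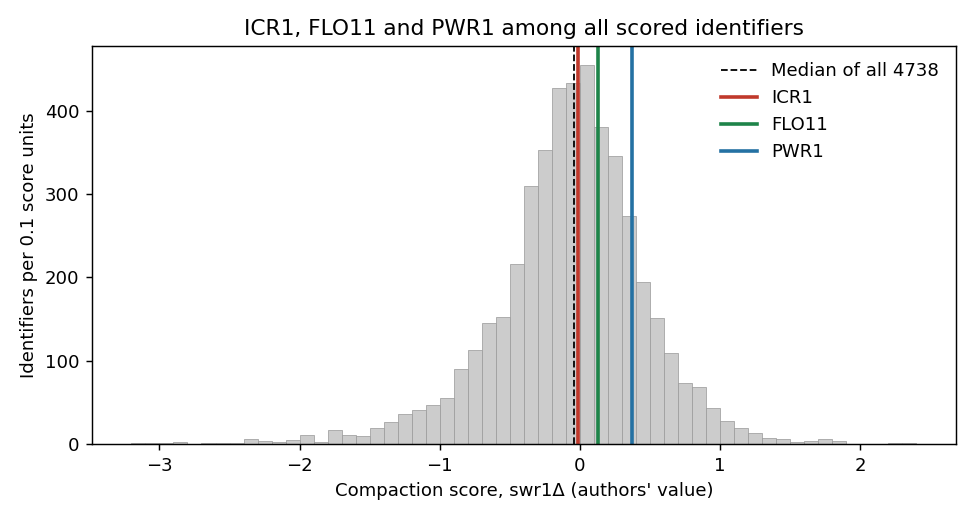
Histogram of the 4738 compaction scores in swr1Δ (x axis, the authors' score; y axis, identifiers per 0.1 score units), with lines at ICR1, FLO11, PWR1 and the median. ICR1 at -0.0139 sits just right of the median at -0.0394, FLO11 at 0.132 is next, and PWR1 at 0.369 lies on the upper shoulder.

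By rank, 2495 identifiers (52.7%) scored lower than ICR1 and 2240 scored higher. For PWR1, 3924 identifiers (82.8%) were lower and 813 were higher. For FLO11, 3142 (66.3%) were lower and 1595 higher. The order was therefore ICR1, FLO11 and PWR1, with the scored gene body between the noncoding RNAs of its own promoter. PWR1 exceeded ICR1 by 0.383, which is less than the SD of 0.555 over all identifiers. FLO11 exceeded ICR1 by 0.146 and fell short of PWR1 by 0.237.

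Of the 4738 rows, 4736 are named as open reading frames, so the nearest scores belong to such rows whatever the RNAs scored. ICR1 shared its exact score with other identifiers, 3 in all including itself. The next lower score belonged to ADE17, an enzyme of purine synthesis, at -0.0141, and the next higher to FAA1, a long-chain fatty acyl-CoA synthetase, at -0.0138. PWR1 stood between YPL277C at 0.368 and YNL320W at 0.369, which differ from it by 0.0006 and 0.0003.

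Because PWR1 is much shorter than ICR1, each RNA was also ranked among the 200 identifiers closest to it in length. The scores of those 200 had an SD of 0.628 around the length of PWR1 and 0.363 around that of ICR1. ICR1 was compared with units of 2904 bp to 3495 bp, whose median was -0.0572 with quartiles of -0.244 and 0.130, and 58% of them scored lower. PWR1 was compared with units of 909 bp to 975 bp, whose median was 0.0300 with quartiles of -0.421 and 0.381, and 74% scored lower. At 0.369, PWR1 thus lay within the middle range of units of its own length, although it lay above the middle range of all identifiers. FLO11 moved the other way. Among units of 3444 bp to 4767 bp, with a median of -0.0623 and quartiles of -0.234 and 0.102, 77% scored lower than FLO11, and its 0.132 was above their upper quartile. Ranked by length in this way, FLO11 at 77% stood above PWR1 at 74%, and ICR1 at 58% was nearer the middle than both. The 95% Wilson intervals of FLO11 (70.7% to 82.3%) and PWR1 (67.5% to 79.6%) overlap. These intervals treat the 200 units as a sample and leave out the error of the scores themselves. Each unit has 1 score without replicate values, so their order is not settled by this ranking. With the length class medians subtracted, ICR1 was at 0.0316, PWR1 at 0.42 and FLO11 at 0.177. The order of the 3 units was then that of the unadjusted scores. By that measure 83.5% of placed identifiers were lower than PWR1 and 66.6% lower than FLO11, the reverse of their ranking among the 200 closest in length.

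**Figure D2:**
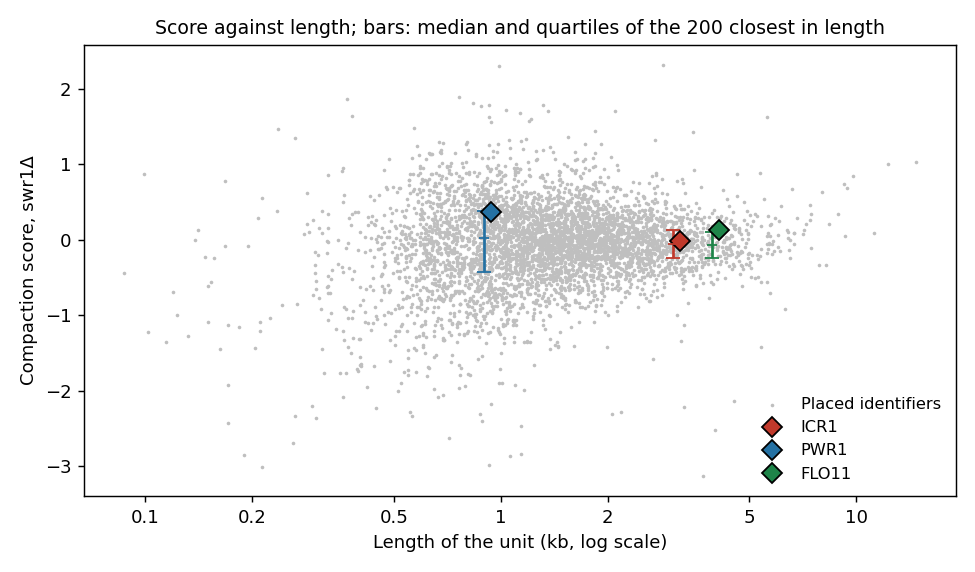
Compaction score in swr1Δ (y axis) against the length of each placed unit in kb (x axis, log scale), with ICR1, PWR1 and FLO11 as diamonds and, drawn just left of each, bars for the median and quartiles of the 200 units closest in length. ICR1 lies inside its bar, PWR1 at 0.369 just under the upper quartile of 0.381, and FLO11 at 0.132 above its upper quartile of 0.102.

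Among the 169 scored identifiers of chromosome IX, whose median of 0.0264 was above that of the genome, 46.2% scored lower than ICR1, 79.9% lower than PWR1 and 59.8% lower than FLO11. ICR1 was therefore below the median of its own chromosome and above the median of the genome. From the far end of ICR1 to the last annotated gene end of the chromosome there were 41097 bp.

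ICR1 and PWR1 are the only rows of the table whose identifier is no systematic open reading frame (ORF) name, against 4736 rows that have one. The R64 gene table lists 22 genes of the class ncRNA, of which these 2 were scored. None of its 7 antisense RNAs, 76 small nucleolar RNAs, 6 small nuclear RNAs or 299 tRNAs had a score. A comparison of ICR1 and PWR1 with noncoding RNAs as a class could thus not be made, and their median, 0.177, is the midpoint of the scores already given.

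The stretch around FLO11 held 13 scored identifiers, the 2 RNAs and 11 ORFs. Their median score was 0.0815 with or without ICR1 and PWR1, their mean was 0.194 and their SD was 0.382. Of the 13, 11 (84.6%) lay above the median of all identifiers, below which 50.0% of the genome lay. Between the quartiles of all scores, which bound the middle 50% of identifiers, lay 10. PWR1 was 1 of the 3 units above the upper quartile, behind YIR016W at 1.28 and YIR021W-A, of only 213 bp, at 0.555. ICR1 was 1 of the 3 units of the stretch below 0. The other two were MET28 at -0.0489, a bZIP cofactor for sulfur amino acid genes, and SEC11 at -0.276, the catalytic subunit of the signal peptidase, and these were the units below the median of all identifiers.

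On the far side of the RNAs the nearest placed gene was MRS1, a splicing factor for mitochondrial group I introns at chrIX:397294-398385, which begins 211 bp beyond ICR1 and scored 0.203. That is 0.165 below PWR1. Farther out came YIR021W-A, only 213 bp long, at 0.555, SEC11 at -0.276 and DAL81, an activator of nitrogen degradation genes, at 0.124. Among these units YIR021W-A and SEC11, neighbors 6 bp apart, differed more from each other than ICR1 did from PWR1, by 0.83.

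On the other side of FLO11, YIR018C-A, only 138 bp long, scored 0.0026, and YAP5, an iron-responsive bZIP factor, scored 0.0509. MET28 followed at -0.0489. These scores lay close to that of ICR1. The last unit of the stretch, YIR016W, scored 1.28, and 36 of all identifiers were higher. YIR017W-A at 0.0729 and YIR020C-B at 0.0815 were not in the gene table and have no position here. RPR2, a subunit of RNase P, and YIR020C, which lies within ICR1 at chrIX:394255-394557, had no score.

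**Figure D3:**
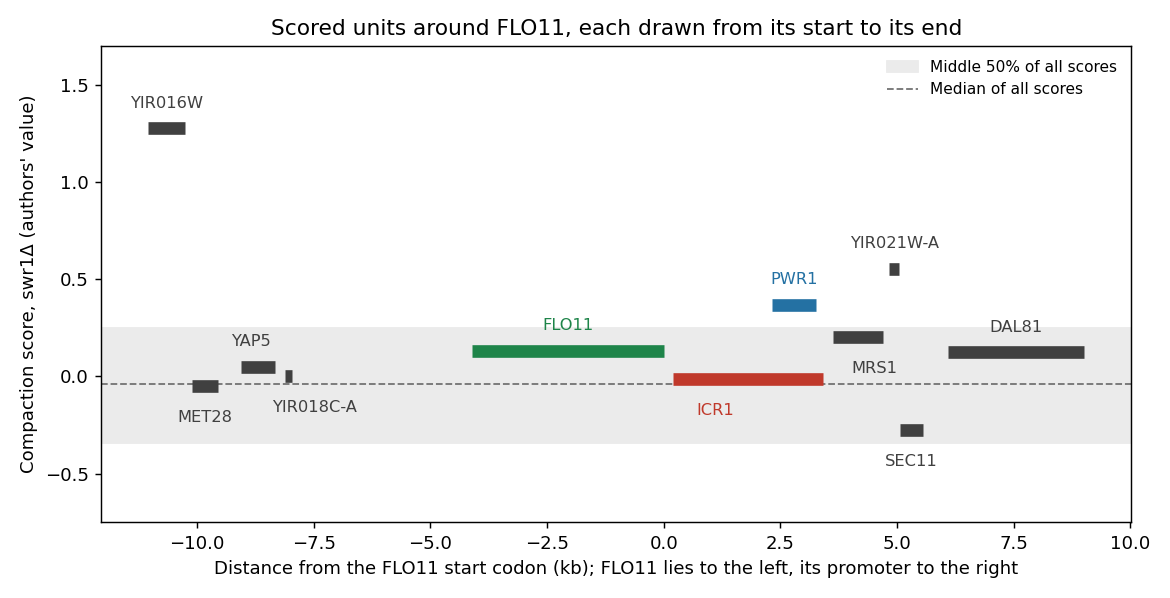
Scored units of the stretch, each drawn from its start to its end in kb from the FLO11 start codon (x axis) at its compaction score in swr1Δ (y axis), with the median and the middle 50% of all scores. ICR1 at -0.0139 spans the promoter at the level of the median, PWR1 at 0.369 lies over its distal portion, and FLO11 at 0.132 and MRS1 at 0.203 flank them.

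Most steps along the stretch were small. Between consecutive placed units the score changed by a median of 0.258 over 10 steps, against 0.427 over 4571 steps in the genome, and 8 of the 10 steps were below that genome median. The step from FLO11 to ICR1 was -0.146, and 17.1% of all steps were smaller in size. The step from ICR1 to PWR1 was 0.383, and 45.3% of all steps were smaller. The step from PWR1 to MRS1 was -0.165, with 19.5% smaller. The large steps were YIR016W to MET28, at -1.33, and YIR021W-A to SEC11, at -0.83. Across the genome the scores of neighbors were weakly related, with a Pearson r of 0.0958 over 4571 pairs of units that share the same libraries.

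As a run of 11 placed units, the stretch had a median of 0.124, and 84.9% of the 4427 runs of that length on all chromosomes had a lower median. The medians of those runs had quartiles of -0.158 and 0.0587, so the stretch was above the upper one. Its SD of 0.414 was below the median SD of runs, 0.478, and 32.2% of runs had a smaller SD.

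The gaps on both sides of FLO11 were long among those between scored ORFs. Of 6021 protein-coding genes 4581 were scored, so a gap can hold unscored genes, as this one holds YIR020C. Gap length is therefore not promoter length. Between FLO11 and MRS1, neighbors among the scored ORFs that could be placed, lie 3618 bp, of which ICR1 covers 88.4%. The median gap between scored and placed ORFs was 461 bp. YIR020C-B, which is scored and may by its name lie in this gap, has no position here and was not considered. Of 4569 such gaps, 249 were longer. The gap behind FLO11, to YIR018C-A, was 3870 bp, and 209 gaps were longer. Gaps at least as long as that between FLO11 and MRS1 were bordered by 490 ORFs, whose median score was -0.0383, and 245 of them (50%) were above the median of all identifiers. FLO11 at 0.132 was 1 of 10 ORFs with such a gap on both sides, and these 10 had a median of 0.235. In none of the other long gaps does the score table hold a noncoding RNA, so ICR1 and PWR1 have no counterpart there.

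Because PWR1 lies inside ICR1, their difference was set beside those of the other scored units that overlap in the gene table. There were 21 pairs with at least 1 bp in common, ICR1 and PWR1 included, made of 40 units (0.872% of those placed), and the median absolute difference of all 21 was 0.657. The other 20 pairs ran from 0.0502 to 3.19 with a median of 0.745. The 0.383 between ICR1 and PWR1 was below that median, and 7 of the 20 (35%) differed less. Neighbors without any overlap differed by a median of 0.427 over 4550 pairs. The overlapping pairs as a whole were thus not the closer ones in score, and the RNAs were close to the median of neighbors that share no DNA.

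In 3 pairs the shorter unit lay wholly inside the longer. SLM1, a phosphoinositide-binding protein of actin organization, and YIL105W-A differed by 0.118. ICR1 and PWR1 were next at 0.383. LDO45 and LDO16, lipid droplet proteins read from overlapping ORFs, differed by 0.881. Among ORF pairs on opposite strands, as ICR1 and PWR1 are known to be, the median difference was 0.291 over 11 pairs and 7 pairs differed less than the RNAs did. Among ORF pairs on the same strand the median was 1.21 over 9 pairs, and the least different of them, at 0.656, exceeded the difference of the RNAs. With so few pairs these medians are descriptions only, and unequal overlaps are mixed in them.

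**Figure D4:**
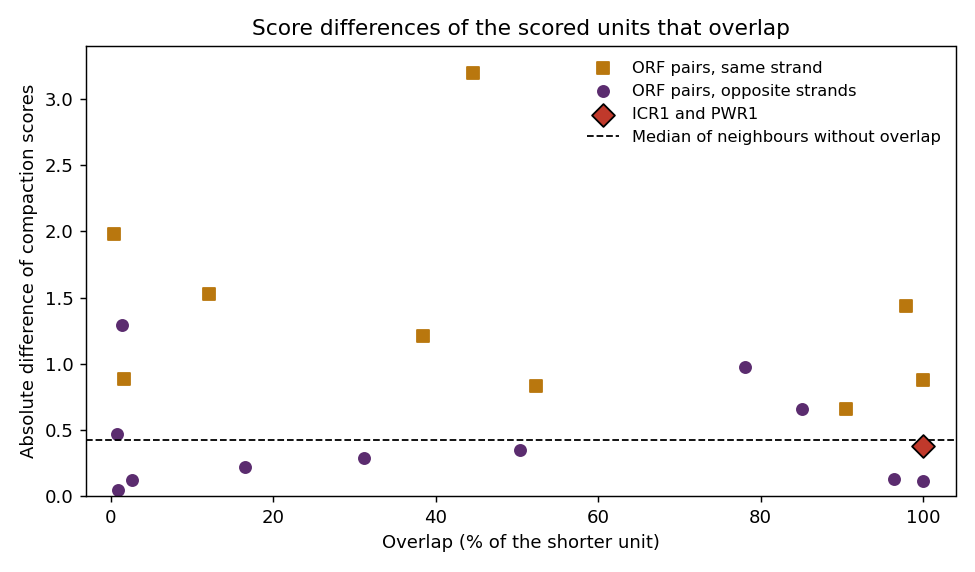
Absolute difference of compaction scores (y axis) against the overlap as a percent of the shorter unit (x axis) for the 21 overlapping pairs, by strand, with the median of 0.427 for neighbors without overlap as a dashed line. ICR1 and PWR1, at 100% and 0.383, lie just under that line, among opposite-strand pairs and below all 9 same-strand pairs.

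PWR1, the shorter and inner unit, had the higher score. Among the 9 other pairs in which the overlap took up at least 50% of the shorter unit, the shorter unit was the higher in 6, with a median of 0.133 for the shorter minus the longer. Over all 20 other pairs it was higher in 10, and among 4536 neighbors of unequal length without overlap in 2163 (47.7%).

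FLO11 was also compared with the other flocculin genes, whose products bind cell wall sugars of neighboring cells. FLO10 scored 0.923, FLO5 0.809 and FLO1 0.587, all above FLO11 at 0.132 and above PWR1 at 0.369. FLO9 scored -0.0906, below ICR1. The median of these 4 genes was 0.698, and 1 of them lay below the median of all identifiers, beside 50.0% in the genome. FLO1, FLO5 and FLO9 are closely similar genes near chromosome ends, and reads could have been shared among them, so their scores are uncertain. FLO11 itself holds internal repeats.

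Of 23 genes known to regulate FLO11, 21 had a score, and PHD1 and RIM101 had none. Their median was -0.0013, close to ICR1, and 9 of the 21 (42.9%) lay below the median of all identifiers, beside 50.0% in the genome. The range was wide, from -0.983 to 0.523. TPK2, the catalytic subunit of protein kinase A that promotes filamentous growth, scored 0.523, and its paralog TPK3 scored -0.718. TEC1, a transcription factor of filamentation genes, was at 0.501, whereas its partner STE12 was at -0.0361. The activators MSS11, MGA1, FLO8 and MSN1 scored 0.345, 0.333, 0.254 and 0.231, each between FLO11 and PWR1, as did SOK2, a regulator of pseudohyphal growth, at 0.309. TUP1 and CYC8, which form a corepressor, were at 0.193 and 0.0622. SFL1, the repressor that opposes Flo8 at this promoter, scored 0.0406, between ICR1 and FLO11.

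Some regulators scored below every unit of the stretch. GCN4, the amino acid starvation factor, scored -0.983, and KSS1, the MAP kinase of filamentous growth, scored -0.725. TPK3 at -0.718 and HAA1, an activator of the weak acid response, at -0.313 were also below SEC11, the lowest unit of the stretch at -0.276. GPA2 and RAS2, signaling GTPases, were at -0.249 and -0.112. SNF1, the glucose-response kinase, and the repressors NRG1 and NRG2 lay between -0.144 and -0.123. In total 8 of the 21 regulators scored above FLO11, as did 1595 of all 4738 identifiers, a similar share.

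All 12 subunits of Rpd3L on the list were scored, with a median of 0.181. Of these few genes, 3 (25%) lay below the median of all identifiers, beside 50.0% in the genome. DEP1 at 1.60 and SAP30 at 0.947 were the highest, and 99.6% and 97.6% of all identifiers scored lower than they did. RPD3, the deacetylase itself, was at 0.239, between FLO11 and PWR1. SIN3, the scaffold, was at -0.162, UME1 at -0.17 and PHO23 at -0.313. RXT3 at 0.276, CTI6 at 0.194, SDS3 at 0.168 and UME6, the DNA-binding subunit, at 0.0939 lay between ICR1 and PWR1. RXT2 at 0.372 was the subunit nearest to PWR1, and ASH1, a member of both lists, was the nearest to ICR1 at -0.0013. These scores describe the chromatin of the genes that encode the regulators and say nothing of how much of each protein was present.

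**Figure D5:**
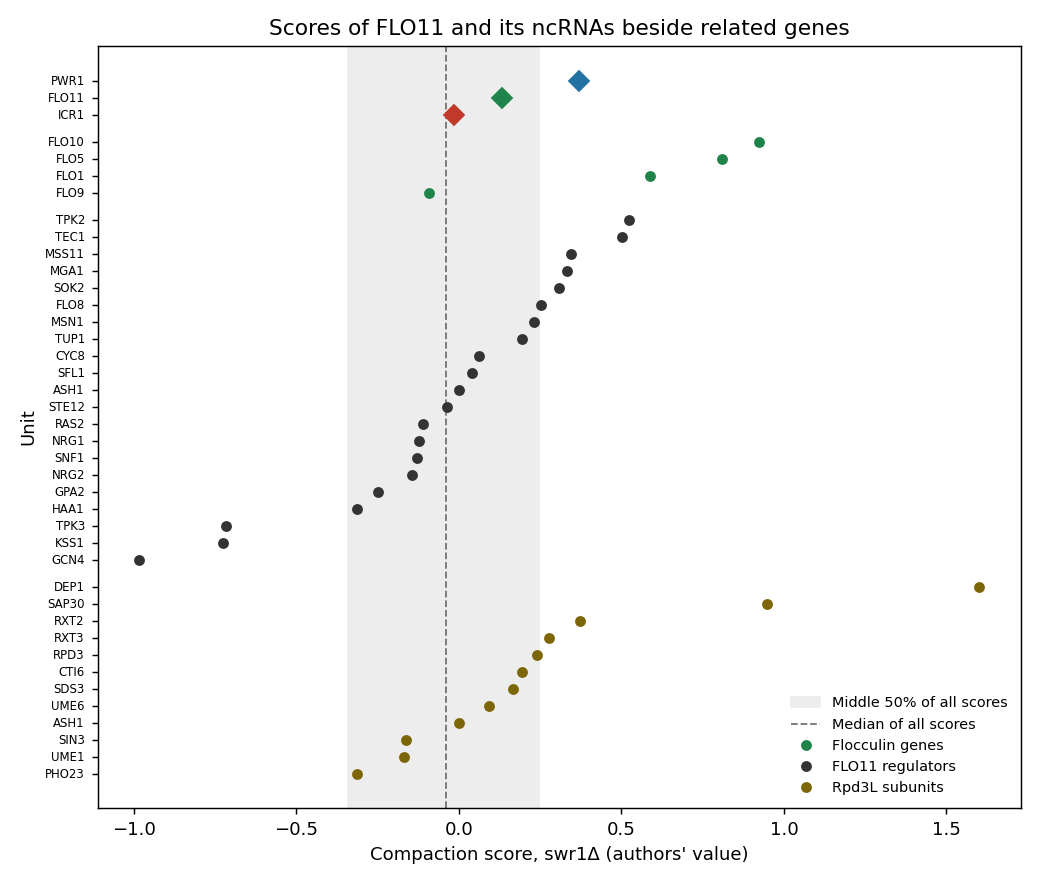
Compaction scores in swr1Δ (x axis) of PWR1, FLO11 and ICR1 (diamonds) and of the flocculin genes, FLO11 regulators and Rpd3L subunits (points, 1 row per gene), with the median and the middle 50% of all scores. FLO10, FLO5 and FLO1 lie to the right of PWR1, and the regulators run from GCN4 at -0.983 to TPK2 at 0.523 on both sides of ICR1.

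The depth behind each score is not given, but the deposited counts show how read pairs 1 to 10000 bp apart were spread over distance. Pairs outside that range are not in the counts, so all shares below refer to it. Within it the libraries held 8804603 and 7314801 read pairs, and which replicate is which cannot be read from the column names. Pairs over 500 bp apart were 297131 (3.37%, 95% Wilson interval 3.36% to 3.39%) and 373548 (5.11%, 5.09% to 5.12%) of these. Of those distant pairs, 43.3% (43.1% to 43.4%) and 41.6% (41.4% to 41.7%) were no farther apart than PWR1 is long. The corresponding shares for the length of ICR1 were 78.5% (78.3% to 78.6%) and 75.9% (75.8% to 76.1%). A unit of the length of PWR1 can thus hold a smaller part of the sampled contact distances than one of the length of ICR1. These intervals cover counting error only, and how the score uses distance is not given in the sources used here.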

How the data were processed

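Micro-C libraries of swr1Δ in W303 were made and sequenced by the authors. The submitters' processing notes name CASAVA 1.8.2, Bowtie2 and the build sacCer3. The authors deposited 1 compaction score per identifier, and its formula, log base, length correction, direction, filters and the pooling of replicates are not given in the sources used here. They also deposited unnormalized counts of read pairs at distances of 1 to 10000 bp in 4 orientations, which were summed over the orientations. There were 0 per-sample columns left unused.

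The scores were used as deposited. Both labelled replicates form the single group swr1Δ. Positions, lengths and biotypes were taken from the R64 gene table, the assembly on which sacCer3 is based, in which 4587 of 4738 identifiers (96.8%) were found by systematic name or symbol. Ranks are the percent of identifiers with a lower score. Length was treated by the 200 or 100 identifiers closest in length and by 10 length classes. Overlaps were taken at 1 bp or more, at 50% and at 80% of the shorter unit, and whole. Further alternatives left out ribosomal protein genes (119) or the 5 units nearest each chromosome end (160 identifiers).

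All scored identifiers of the stretch, every scored noncoding RNA, the flocculin genes, the FLO11 regulators, the Rpd3L subunits and the nearest scores to ICR1 and PWR1 were named. The members and lists were chosen with earlier results of these data known, and 1 further regulator gene is not reported here and enters no count. The functions were tested on simulated data, where 9 of 9 checks recovered the known answers. Python 3.11.15, numpy 2.4.6, pandas 2.3.3 and matplotlib 3.10.9 were used.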

Additional observations from a re-analysis of the deposited data

How the results depend on the processing

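Of 28 alternatives to the values reported for ICR1, PWR1, FLO11 and their surroundings, 23 were counted as the same. These differed by less than a 95% binomial interval (percents), 1 SD (scores) or 1.5 times (counts), or did not change. Not all 23 test stability. A percent passed if either value lay within the interval of the other, so small reference sets passed easily. FLO11 at 59.8% among the 169 identifiers of chromosome IX thus counted as the same as 66.3%. Leaving out ribosomal protein genes (119) or units near chromosome ends (160) removes few identifiers, so those percents could change little. A minimum of 500 bp kept the same 2 noncoding rows, so their median of 0.177 could not change. For overlapping pairs, the median difference of 0.657 fell to 0.383 in the 3 with the shorter unit wholly inside. That value is the difference of ICR1 and PWR1 itself. The limit of 1 SD also let the stretch median of 0.0815 pass beside the mean of 0.194. The percent of identifiers scoring below PWR1, 82.8%, became 74% among the 200 and 74% among the 100 closest in length. That for FLO11, 66.3%, became 77% and 79%. The excess of PWR1 over ICR1, 0.383, was 0.389 with length class medians removed. As a difference of single values it has no spread of its own, so any change in it was counted. In each case the cause was not tested. For ICR1 the percent ranged from 46.2% on chromosome IX to 62% among the 100 closest in length, so its side of the median depends on the reference. The count of FLO11 regulators below the median, 9 of 21, was 11 when counted below 0 and 11 against units of like length.

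Replicates could not be left out, because each identifier has 1 score. No paired analysis was possible because the files hold 1 strain and the scores carry no replicate number. Unit boundaries were those of the gene table, and 151 identifiers without a position were left out of lengths, overlaps and runs. The shorter PWR1 has fewer possible contacts than ICR1, and the read pairs behind each score are unknown. YIR018C-A, of 138 bp, and YIR021W-A, of 213 bp, have fewer still, so their scores and steps are the least certain of the stretch.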
